A study of Danio rerio with 18 samples.

Results

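Keratins krt4, krt5, krt8, krt17, krt18a.1 and krt92 were followed in whole zebrafish embryos. They are 6 of the 32521 gene identifiers in the count files and were picked by symbol, as keratin genes of the enveloping layer whose levels over 3 stages and response to injection were already known. Their levels over the stages, and their injection ratios at the 128-cell stage and 5 hours post fertilization (hpf), are therefore given as a description without a test. Their injection effect at 24 hpf was not used in the choice and was tested.

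The embryos came from Tg(ddx4:ddx4-EGFP) females (strain label ABTL Tg(ddx4:ddx4-EGFP)) mated to casper males, so that every group carried the maternal ddx4-EGFP transcript. At the 1-cell stage the yolk received 1 nL with 0.7 ng of StCsm(EGFP), an RNA-cutting CRISPR complex of Streptococcus thermophilus guided to EGFP, which the treatment notes call D16A-StCsm(EGFP). Mock injected embryos received 1 nL of diluted Tris storage buffer without the complex. Pools of 25 whole embryos were frozen at 3 stages (128 cells, 5 hpf, 24 hpf) in each of 3 independent injections, which gives 6 groups of 3 libraries (18 in all). Each injection is called a batch here, since embryos of 3 mating pairs were pooled and divided between both treatments within it. Libraries with the same replicate number were taken as the same batch, which the sample titles do not state. The paper names both homozygous and heterozygous fish, which in this cross can only be the mothers.

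Keratins are the intermediate filament proteins of epithelia. Type II keratins, here krt4, krt5 and krt8, pair with type I keratins, here krt17, krt18a.1 and krt92, and filaments form only from such pairs. In the zebrafish the enveloping layer is the outermost, flattened epithelial sheet of the blastula. During epiboly it spreads over the yolk, and it later becomes the periderm, the surface layer of the embryonic skin. The embryo relies on maternal RNA during cleavage, and transcription of its own genome starts in the blastula, so that the 128-cell stage lies before it and 5 hpf after it.

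Between 11763787 and 21092691 reads were assigned to genes per library. Levels are given as normalized CPM, which are read counts relative to library size after TMM scaling over all 18 libraries. EGFP had a level of 135, 238 and 95.8 normalized CPM in StCsm(EGFP) injected batches 1, 2 and 3 of the 128-cell stage, against 165, 285 and 162 in mock injected batches. At 5 hpf it had 62.3, 111 and 79.4 against 110, 145 and 111, and at 24 hpf 12 to 36 reads in each library. In edgeR's fit across all genes the EGFP difference passed the threshold at the 128-cell stage (-0.44 on the log2 scale, SE 0.077, adjusted p = 0.0186) and not at 5 hpf (-0.57, SE 0.19, adjusted p = 1.00). At 5 hpf 0 of all 15819 genes passed, and the unadjusted p of EGFP in edgeR's test was 0.0144. The paper, with a likelihood ratio test of EGFP, reports a significant reduction at both stages. In RNA of whole embryos, fewer cells of a type and less RNA per cell cannot be told apart.

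The label of the set was held against the other enveloping layer and periderm genes, fixed as a list of 18 matched genes. At 5 hpf its regulators stood at unlike levels in mock injected embryos. The Krüppel-like transcription factor gene klf17 stood at 380 ± 107 normalized CPM (SD, n = 3), and the grainyhead factor gene grhl3 at 380 ± 69.6. The regulator grhl1 stood lower, at 48.6, 66.1 and 40.2 in batches 1, 2 and 3. The tight junction gene cldne stood at 659 ± 86.5 and lye at 817 ± 170. Of 17 tested genes of this list, 15 rose from the 128-cell stage to 5 hpf in mock injected embryos in edgeR's test, against 38.4% of all 16462 genes tested (38.7% fell, 77.1% in either direction), with a median log2 fold change of 5.29 against -0.04 over all genes. Of those that did not pass, epcam had a high level at the 128-cell stage already (1196 ± 83.2 normalized CPM, SD, n = 3) and a log2 fold change of -0.32. With library totals in place of TMM scaling 14 of 17 rose and 2 fell. The filter on low counts fixed part of this count. Only 9 of the 18 genes passed it between treatments at the 128-cell stage. Genes that passed only through 5 hpf could only rise.

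From the 128-cell stage to 5 hpf, all 6 keratins went from traces to abundant transcripts, and from 5 hpf to 24 hpf they parted. The krt4 transcript went on to become one of the most abundant of the embryo, and krt17 stood above its own 5 hpf level at 24 hpf. In contrast, krt8, krt18a.1 and krt92 stood lower at 24 hpf than at 5 hpf, and krt5 stayed close to its 5 hpf level. All differences below are on the scale of log2(normalized CPM + 0.5), taken within a batch and averaged over 3 batches, and this scale understates differences from very low levels. Against TMM scaling, scaling by library totals moved the median of all genes in mock injected embryos from 0.00 to -0.41 between the 128-cell stage and 5 hpf, and from 0.03 to -0.26 between 5 hpf and 24 hpf. Among the 6 genes it changed a direction only for krt5 between 5 hpf and 24 hpf.

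Among the type II genes, krt4 encodes a keratin of the enveloping layer and periderm that is widely used to drive transgenes in them. At 5 hpf its level was 5218, 3861 and 3408 normalized CPM in mock injected batches 1, 2 and 3, and 4205, 4418 and 3417 in StCsm(EGFP) injected batches. At 24 hpf it was 20858, 23708 and 22091 in mock injected and 22808, 18697 and 18662 in StCsm(EGFP) injected batches. The lowest 24 hpf library stood more than 3 times above the highest 5 hpf library. Among all genes ordered by reads, krt4 ranked 13 to 18 at 5 hpf and 2 to 6 at 24 hpf. The mean log2 difference in mock injected embryos was 8.07 ± 1.88 (SD, n = 3) up to 5 hpf and 2.44 ± 0.38 (SD, n = 3) from 5 hpf to 24 hpf, the latter a 5.42-fold higher level. StCsm(EGFP) injected embryos had a second difference of 2.32 ± 0.21 (SD, n = 3). The first one was 10.5 ± 1.49 there, since krt4 was lower in these embryos at the 128-cell stage.

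The krt8 gene encodes the type II keratin of simple epithelia. It had 4594, 3086 and 2942 normalized CPM in mock injected and 3946, 4043 and 3574 in StCsm(EGFP) injected batches at 5 hpf. At 24 hpf these were 725, 979 and 846 in mock injected and 882, 1047 and 710 in StCsm(EGFP) injected batches. Every 24 hpf library lay below every 5 hpf library, and the mean level in mock injected embryos was 4.11-fold lower (log2 difference -2.04 ± 0.55, SD, n = 3). At the 128-cell stage krt8 varied less between libraries than krt4, with 8.49, 5.85 and 4.55 normalized CPM in mock injected and 4.43, 4.29 and 3.66 in StCsm(EGFP) injected batches. The log2 difference from there to 5 hpf was 9.04 ± 0.13 (SD, n = 3) in mock injected embryos.

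The third type II gene, krt5, changed least after 5 hpf. Its level was 2015, 1460 and 1281 normalized CPM in mock injected and 1668, 1599 and 1623 in StCsm(EGFP) injected batches at 5 hpf. At 24 hpf it was 1834, 2069 and 1859 in mock injected and 1964, 1722 and 1758 in StCsm(EGFP) injected batches, a range that overlapped that of 5 hpf. The log2 difference from 5 hpf to 24 hpf was -0.14, 0.50 and 0.54 in mock injected batches (0.30 ± 0.38, SD, n = 3) and 0.15 ± 0.07 in StCsm(EGFP) injected ones, and with library totals the means were -0.08 and -0.10.

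Among the type I genes, krt18a.1 encodes a keratin 18, which in mammals is the usual partner of keratin 8 in simple epithelia. It had 3156, 3246 and 2310 normalized CPM in mock injected and 2990, 2758 and 2944 in StCsm(EGFP) injected batches at 5 hpf, against 383, 465 and 411 in mock injected and 388, 502 and 475 in StCsm(EGFP) injected batches at 24 hpf. Of the 6 genes it made the largest step in both intervals. The log2 difference in mock injected embryos was 11.28 ± 0.62 (SD, n = 3) up to 5 hpf and -2.78 ± 0.28 (SD, n = 3) after it, a 6.86-fold lower level.

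The type I gene krt92 moved the same way in smaller steps. At 5 hpf it stood at 1178, 589 and 546 normalized CPM in mock injected batches and at 828, 868 and 626 in StCsm(EGFP) injected batches. Relative to the mean, its spread between mock injected batches was the widest of the 6 genes at this stage (SD 45.8% of the mean). At 24 hpf all 6 libraries lay between 315 and 506, below every library of 5 hpf. The log2 difference was -0.85 ± 0.69 (SD, n = 3) in mock injected and -0.95 ± 0.44 (SD, n = 3) in StCsm(EGFP) injected embryos.

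The type I gene krt17 was the least abundant of the 6 in reads at 5 hpf and was higher at 24 hpf. It had 144, 112 and 76.5 normalized CPM in mock injected and 117, 127 and 84.0 in StCsm(EGFP) injected batches at 5 hpf. At 24 hpf it had 288, 338 and 289 in mock injected and 364, 293 and 265 in StCsm(EGFP) injected batches, each above every library of 5 hpf. The log2 difference was 1.50 ± 0.47 (SD, n = 3) in mock injected and 1.49 ± 0.25 (SD, n = 3) in StCsm(EGFP) injected embryos.

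**Figure D1:**
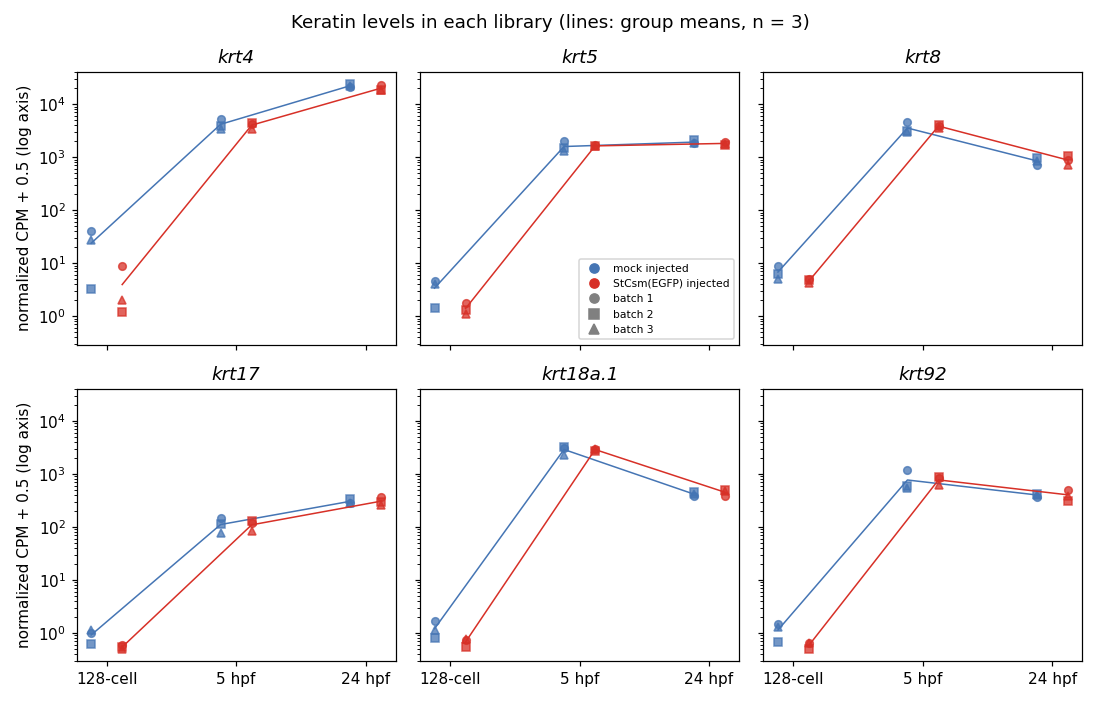
Normalized CPM + 0.5 (log axis) of the 6 keratin genes against stage, with 1 point per library and lines through the means of 3 libraries. All genes rise steeply to 5 hpf, after which krt4 and krt17 lie higher at 24 hpf, krt8, krt18a.1 and krt92 lower and krt5 at about the same level, in blue (mock injected) as in red (StCsm(EGFP) injected).

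The 6 genes together took 0.00087% to 0.0080% of all assigned reads at the 128-cell stage, 1.06% to 1.37% at 5 hpf and 1.71% to 2.06% at 24 hpf. These shares are of reads, not per transcript length, because no transcript lengths were used. Within these reads the make-up turned over between the later stages. In mock injected embryos krt4 held 31.8% ± 0.53 of the reads of the 6 genes at 5 hpf, krt8 27.0% ± 1.76 and krt18a.1 22.5% ± 3.50 (SD, n = 3). At 24 hpf krt4 held 85.1% ± 0.32, krt8 3.24% ± 0.27 and krt18a.1 1.60% ± 0.05 (SD, n = 3). In StCsm(EGFP) injected embryos krt4 held 30.1% of these reads at 5 hpf and 83.8% ± 0.97 (SD, n = 3) at 24 hpf.

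**Figure D2:**
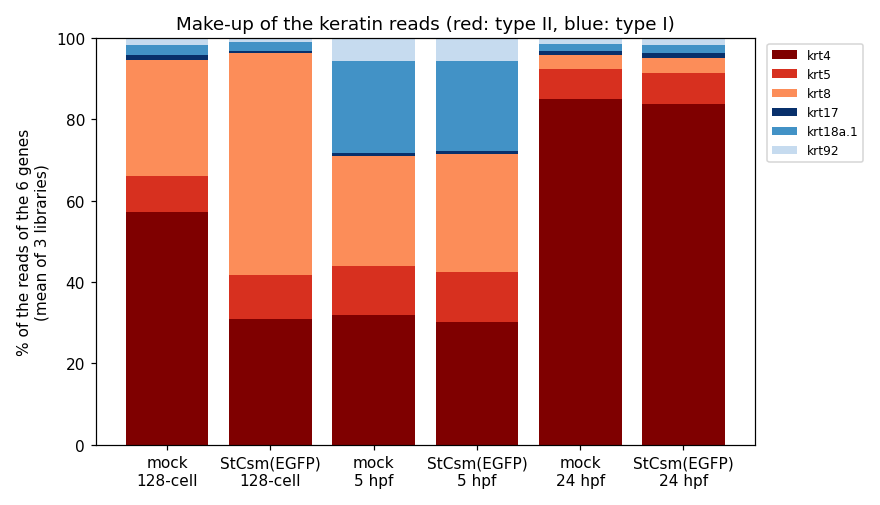
Share of each gene in the reads of the 6 keratin genes (percent, mean of 3 libraries per group), with type II genes in red shades and type I genes in blue shades. At 5 hpf krt4, krt8 and krt18a.1 hold shares of comparable size, and at 24 hpf krt4 holds 85.1% in mock injected and 83.8% in StCsm(EGFP) injected embryos.

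By type, the 3 type II genes held 68.1% to 72.8% of the reads of the 6 genes at 5 hpf and 94.9% to 95.7% at 24 hpf over 6 libraries each. Both krt8 and krt18a.1 stood lower at 24 hpf, but not to the same degree. The log2 ratio of krt8 to krt18a.1 in normalized CPM was 0.34 ± 0.23 at 5 hpf and 0.98 ± 0.21 at 24 hpf (SD, n = 6 libraries of both treatments), and only its change between stages can be read, since transcript lengths differ between genes. The log2 ratio of krt4 to krt5 went from 1.34 ± 0.14 to 3.50 ± 0.06 (SD, n = 6).

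Some keratin neighbours on the chromosome had the same direction after 5 hpf and some did not. In the gene order of the RefSeq assembly GRCz12tu, which is not the build of the counts and served for the order only, krt5, krt8, krt18a.1 and krt18a.2 follow each other. Of these krt5 stayed near its level after 5 hpf while the adjacent krt8 and krt18a.1 both stood lower, and krt18a.2 had at most 0.49 normalized CPM in any library of 5 hpf. Likewise krt1-19d, krt1-19e, krt92, cyt1l, cyt1, krt17 and krt91 follow each other. In this row krt92 stood lower at 24 hpf and each of the others higher than at 5 hpf. The 2 neighbours of krt4 on one side are zgc:158846 and krt18b, and krt18b, like krt4, was higher at 24 hpf. Reads that map to more than 1 place (3.77% to 14.8% of the reads of a library) were not counted to any gene, so levels of keratin genes with close copies are uncertain.

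Of the 16 other keratin genes on the list, 6 could be tested from the 128-cell stage to 5 hpf, and all 6 rose in mock injected embryos (38.4% of all genes did). From 5 hpf to 24 hpf, 12 were tested, of which 10 rose and 2 fell in edgeR's test, against 42.3% and 38.5% of all 17951 genes tested (80.9% in either direction). Under library totals these counts were the same. The filter on low counts fixed part of them. Mock injected means of krt91, krt99 and krt222 were 0.40, 0.07 and 0.30 normalized CPM at the 128-cell stage, so these genes could only rise to 5 hpf. Those of krt15, krt18b, krt94, krt1-19d and krt1-19e were 0.06 to 0.44 at 5 hpf, so these genes could only rise to 24 hpf. The type I keratin genes cyt1l and cyt1 stood at 70.0 ± 29.7 and 109.9 ± 36.6 normalized CPM at 5 hpf and at 1836 ± 213 and 1328 ± 128 at 24 hpf (SD, n = 3, mock injected), with log2 fold changes of 4.79 and 3.64. The krt91 gene had a log2 fold change of 3.97. The 2 that fell were krt97, from 758 ± 240 to 254 ± 10.2 (log2 fold change -1.53), and krt99, named here after its values were seen, from 214 ± 52.6 to 24.2 ± 4.94 (log2 fold change -3.14). Krt97 and krt99 thus had the direction of krt8, krt18a.1 and krt92, while the 10 others had that of krt4 and krt17. The 6 described genes held 91.0% to 93.1% of the reads of all 22 keratin genes at 5 hpf and 84.8% to 88.2% at 24 hpf.

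**Figure D3:**
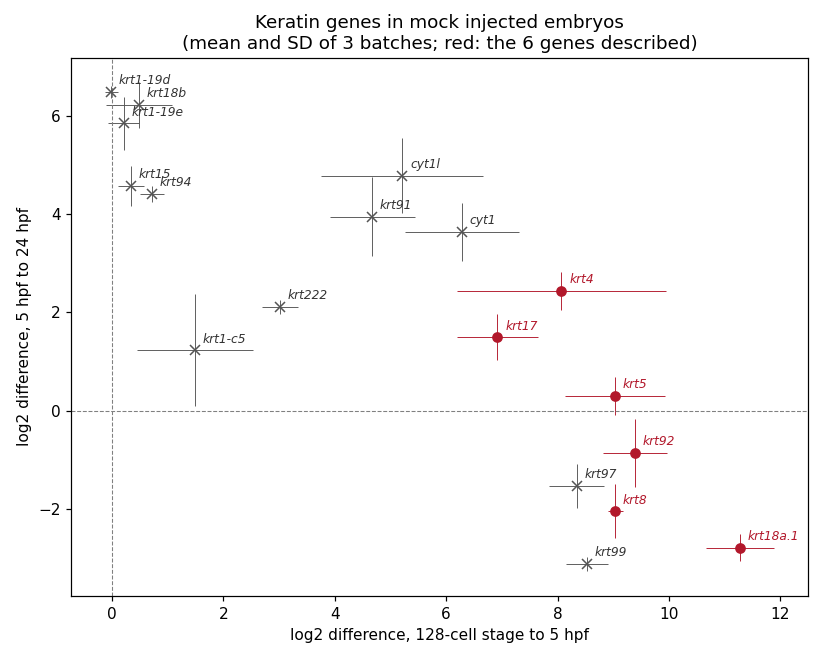
Log2 difference of normalized CPM + 0.5 from the 128-cell stage to 5 hpf (horizontal) and from 5 hpf to 24 hpf (vertical) for 18 keratin genes in mock injected embryos, as the mean and SD of 3 batches; the 4 keratin genes with a mean under 1 CPM at all stages are not drawn. The 6 described genes (red) lie at the right, at 6.92 or more, with krt4 and krt17 above 0 and krt8, krt18a.1 and krt92 below it on the vertical axis, and krt97 and krt99 lie beside the latter.

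Most other genes of the enveloping layer fell after 5 hpf, whereas krt4 and krt17 stood higher. From 5 hpf to 24 hpf, 13 of the 18 tested genes of that list fell and 4 rose in mock injected embryos in edgeR's test (38.5% and 42.3% of all genes did), with a median log2 fold change of -2.45 against 0.10 over all genes. The regulators klf17, grhl3 and grhl1 had log2 fold changes of -3.61, -4.59 and -3.16. The cell adhesion gene epcam had -2.79, lye -2.51, cldne -3.39 and ppl, which encodes the cytolinker periplakin, -1.41. The 4 that rose, named after their values were seen, were icn, icn2, anxa1b and anxa1c, with log2 fold changes of 6.78, 9.02, 1.48 and 2.53. The last gene, cfl1l, also named after its values were seen, had 229 ± 23.8 normalized CPM at 5 hpf and 232 ± 45.4 at 24 hpf and did not pass. With library totals 14 fell and 4 rose. The icn2 gene had 0.25, 0.17 and 0 normalized CPM in mock injected batches at 5 hpf, so it could only rise.

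Desmosomes are the junctions to which keratin filaments attach. Of 16 desmosome symbols 8 were matched, and of these ppl and evpla are also on the enveloping layer list. All 8 matched desmosome genes rose to 5 hpf (38.4% of all genes did), 7 of them with library totals, and from there 7 of 8 fell and 1 rose (38.5% and 42.3% of all genes did), with a median log2 fold change of -1.36. The cytolinker gene evpla had a log2 fold change of -2.68, perp -1.32 and the plakophilin gene pkp3a -1.45. The gene that rose was pkp2, with a log2 fold change of 1.19, named after its value was seen. Basal epidermis genes, which mark the layer under the periderm, went the other way. Of 9 tested, 8 rose and 1 fell from 5 hpf to 24 hpf (42.3% and 38.5% of all genes did). The krt1-19e gene among them is also on the list of other keratins. Among those that rose were tp63, the transcription factor gene of basal keratinocytes (5.84 ± 1.77 to 52.5 ± 6.30 normalized CPM, log2 fold change 3.19), lama5 (2.58), fras1 (3.25) and the basal keratin gene krt1-19e (6.86). The gene that fell was col17a1a, which had 8.73 ± 1.97 normalized CPM at 5 hpf (named after its value was seen). Of the genes for other cytoplasmic intermediate filaments, 5 of 7 tested rose in this interval (42.3% of all genes did), gfap, vim, nes and nefmb among them. Between treatments at 5 hpf, 7 basal epidermis genes and 4 of these filament genes passed the filter on low counts. Genes of both lists that passed only through 24 hpf could only rise. Of the 8 tested yolk syncytial layer genes, which mark the tissue over which the enveloping layer spreads, all 8 rose up to 5 hpf (38.4% of all genes did), 7 of them with library totals, and 3 rose and 5 fell after it (42.3% and 38.5% of all genes did). Among these the apolipoprotein genes apobb.1 and apoa1b had log2 fold changes of 5.65 and 3.16 after 5 hpf, and mtp, needed for the assembly of lipoproteins, and the transcription factor gene gata3 had -5.54 and -2.25. Between treatments at the 128-cell stage, 6 desmosome and 2 yolk syncytial layer genes passed the filter on low counts. Between treatments at 24 hpf, 6 yolk syncytial layer genes passed it. Genes that passed only through 5 hpf could only rise to that stage and only fall after it, so the filter fixed part of these counts.

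The genes whose pattern over all 18 libraries was most like that of a member were sought among 20231 genes by Pearson's r of log2(normalized CPM + 1). The 18 libraries fall into 3 stages, so that these r values describe mostly the stages, and r does not depend on the size of the changes. Between members, krt8 and krt18a.1 had r = 0.998, and krt4 and krt18a.1 the lowest value, 0.894. For krt8 the nearest other genes were dnase1l4.1 and apoeb, an apolipoprotein E gene, with r = 0.999 and 0.998. For krt18a.1 they were apoeb and zgc:193505, with r = 0.999 each. In mock injected embryos apoeb stood at 1.85 ± 0.85, 3070 ± 488 and 472 ± 68.8 normalized CPM at the 3 stages in order (SD, n = 3). The nearest genes of krt5 were slc25a55a (r = 0.999) and apoc1 (r = 0.998), those of krt17 HK1 and ARRDC3 (r = 0.998 each), and those of krt92 si:ch211-166a6.5 and si:dkey-239h2.3 (r = 0.998 each). No gene came as close to krt4, for which SEC61G and GBX1 had r = 0.993 and 0.990, with far smaller differences between stages (SEC61G 53.6 ± 7.53, 215 ± 28.6 and 336 ± 5.59 normalized CPM in mock injected embryos).

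The question behind the injection is whether a complex directed at EGFP alters other transcripts. At 24 hpf, 0 of the 6 keratins passed an adjusted p of 0.1 in edgeR's quasi-likelihood test with the batch as a block, and 0 of all 16986 genes tested did (0%). Of all genes, 819 had an unadjusted p under 0.05, and DESeq2's likelihood ratio test called 0. The keratin with the largest estimate was krt4, at -0.14 on the log2 scale (SE 0.26, adjusted p = 0.980 from edgeR), and its per-batch log2 ratios were 0.13, -0.34 and -0.24. The only gene with the same sign in all 3 batches was krt18a.1, with log2 ratios of 0.02, 0.11 and 0.21 and a fitted value of 0.12 (SE 0.14, adjusted p = 0.977 from edgeR). For krt5, krt8, krt17 and krt92 the fitted values were -0.07, 0.05, 0.01 and -0.01, with standard errors of 0.18, 0.17, 0.15 and 0.18. Over all alternatives run, the adjusted p of the 6 genes ranged from 0.709 to 1.00 in edgeR's and DESeq2's tests. The median fitted log2 fold change was 0.0020 over the 6 genes and -0.0064 over all genes. None of the 12 other keratins, the 18 enveloping layer genes or the 8 desmosome genes tested passed at 24 hpf. On counts simulated for this comparison without batch differences, 68.5% of 200 randomly chosen genes changed by 1 on the log2 scale were recovered. That step is far larger than any keratin estimate here, so this share does not tell whether changes of their size would be found.

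At 5 hpf the injection ratios of the keratins scattered around 0. The mean log2 ratio of StCsm(EGFP) to mock injected embryos was -0.04 ± 0.26 for krt4, 0.07 ± 0.31 for krt5, 0.15 ± 0.32 for krt8, 0.01 ± 0.26 for krt17, 0.01 ± 0.30 for krt18a.1 and 0.08 ± 0.54 for krt92 (SD, n = 3 batches). Each SD was larger than its mean. All 6 genes were lower after StCsm(EGFP) injection in batch 1, whereas in batches 2 and 3 all but krt18a.1 in batch 2 were higher, which makes 11 of 18 ratios above 0. No gene of 15819 was called in edgeR's test at this stage (0%), with 131 at an unadjusted p under 0.05 and 2 calls in DESeq2's likelihood ratio test.

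The differences between libraries of 5 hpf were shared by the keratins. The highest library was mock injected batch 1 for 5 of the 6 genes (19.6% of all 20231 genes had their highest value there), and the lowest was mock injected batch 3 for all 6 genes (12.4% of all genes). For krt92 the highest of the mock injected libraries stood at 1178 and the lowest at 546 normalized CPM. The same held for krt97, with 1013 and 536, and for klf17, with 501 and 298. Other enveloping layer genes had another order. The cytolinker gene evpla had 801 and 655 normalized CPM in mock injected batch 2 and StCsm(EGFP) injected batch 3, against 379 to 506 in the other libraries. Likewise grhl1, lye and the desmosome gene perp, which is not on the enveloping layer list, had their 2 highest libraries in mock injected batch 2 and StCsm(EGFP) injected batch 3. What set these libraries apart was not tested.

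**Figure D4:**
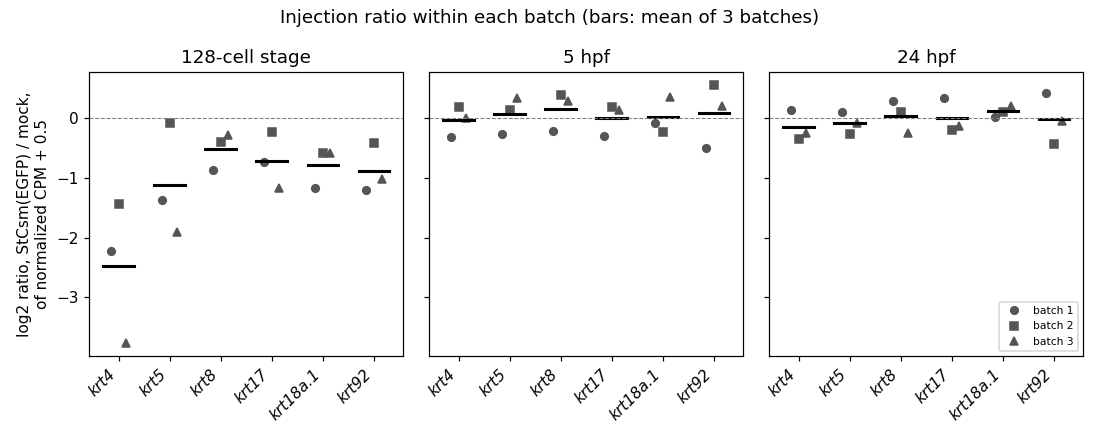
Log2 ratio of normalized CPM + 0.5 between StCsm(EGFP) and mock injected embryos of the same batch for each keratin gene (points: 3 batches, bars: their mean) in 3 panels by stage. All 18 ratios of the 128-cell stage, which come from 3 pairs of libraries, lie below 0, while those of 5 hpf and 24 hpf lie on both sides of it.

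At the 128-cell stage all 6 keratins were low, and all 18 ratios within batches were below 0. These ratios come from only 3 pairs of libraries, so that they are not independent of each other. Mock injected batch 1 was the highest library for 5 of the 6 genes (22.9% of all genes had their highest value there). The krt4 level was 40.3, 2.69 and 26.7 normalized CPM in mock injected batches 1, 2 and 3, and 8.18, 0.68 and 1.49 in StCsm(EGFP) injected batches. The counts behind these values were 797, 63 and 646 reads against 240, 20 and 33, so that the spread between batches exceeded the counting error (before TMM scaling 58.0 CPM, 95% exact Clopper-Pearson interval 54.1 to 62.2, in mock injected batch 1 and 3.92, interval 3.02 to 5.02, in mock injected batch 2; these intervals cover counting error only). The groups overlapped, since mock injected batch 2 lay below StCsm(EGFP) injected batch 1. The log2 ratios were -2.23, -1.43 and -3.77, with a mean of -2.48 ± 1.19 (SD, n = 3).

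In mock injected batches krt5, krt17, krt18a.1 and krt92 had still fewer reads than krt4, and batches 1 and 3 stood out for them. Reads of krt8 outnumbered those of krt4 in mock injected batch 2 (137 against 63). They also did so in StCsm(EGFP) injected batches 2 (126 against 20) and 3 (81 against 33). Mock injected batches had 82, 21 and 87 reads of krt5 and StCsm(EGFP) injected batches 38, 24 and 13. For krt8, whose levels are given above, the lowest mock injected library lay just above the highest StCsm(EGFP) injected one. For krt92 the reads were 19, 4 and 19 against 4, 0 and 3, and for krt17 they were 10, 3 and 15 against 3, 1 and 0. A count of 0 allows up to 3 reads, which is 0.152 CPM in the library without krt92 reads and 0.207 CPM in the library without krt17 reads. For krt18a.1 there were 23, 7 and 16 reads against 7, 1 and 6. The mean log2 ratios were -1.12 ± 0.94 for krt5, -0.52 ± 0.31 for krt8, -0.71 ± 0.47 for krt17, -0.78 ± 0.34 for krt18a.1 and -0.88 ± 0.41 for krt92 (SD, n = 3). With 0.1 CPM added in place of 0.5 the ratios of krt17, krt18a.1 and krt92 were -1.73, -1.50 and -1.84. Only 3 of the 6 genes, krt4, krt5 and krt8, had reads enough to pass the filter on low counts, at a stage where 5.05% of 15498 tested genes were called between the treatments (2.79% lower, 2.26% higher). With library totals 361 of the 848 genes called were lower, against 432 of 783.

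Transcripts of 24 hpf tissues stood high in the same libraries. The 14 matched muscle and blood genes, which include the calcium pump gene atp2a1 and the muscle actin gene actc1b as well as embryonic globin genes, summed to 42.5, 5.72 and 27.2 normalized CPM in mock injected batches of the 128-cell stage and to 10.9, 3.81 and 3.94 in StCsm(EGFP) injected ones. That is 0.212%, 0.0286% and 0.136%, and 0.0543%, 0.0190% and 0.0197% of their mean sum at 24 hpf. The krt4 level was 0.191%, 0.0127% and 0.126%, and 0.0387%, 0.0032% and 0.0071% of its own 24 hpf mean. The 6 libraries had the same order by krt4 as by the muscle and blood sum. Of the list, 0 genes were without reads in mock injected batches 1 and 3, and 1 was without reads in batch 2. In StCsm(EGFP) injected batches 0, 4 and 2 genes were without reads. In edgeR's test 6 of the 7 tested muscle and blood genes were lower after StCsm(EGFP) injection (2.79% of all genes were), with a median log2 fold change of -2.03. The myosin heavy chain genes myhz1.1 and myhz1.3 had -2.45 and -3.26. Without batch 1, 3 of 5 tested genes were lower, without the replicate block 0 of 7, and DESeq2's likelihood ratio test gave none of the 7 an adjusted p.

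Of the other keratins, some were also lower after StCsm(EGFP) injection at the 128-cell stage. The 2 that passed the threshold of the 3 other keratins tested were cyt1 (-1.93 on the log2 scale, SE 0.38, adjusted p = 0.0274 from edgeR) and cyt1l (-2.43, SE 0.44, adjusted p = 0.0235). Their log2 ratios within batches 1, 2 and 3 were -1.07, -0.12 and -1.42 for cyt1 and -1.56, 0.15 and -2.19 for cyt1l, which was thus not lower in batch 2. DESeq2's likelihood ratio test gave neither gene an adjusted p. In edgeR's test without batch 2 the adjusted p of cyt1 was 0.116 and that of cyt1l 0.0581, without batch 1 neither could be tested, and without the replicate block both had an adjusted p of 0.987 in edgeR. The cyt1l level was 0.180%, 0.0024% and 0.135% of its 24 hpf mean in mock injected batches. Of the 9 tested enveloping layer genes other than keratins 0 passed, against 5.05% of all genes, a share too low for 0 of 9 to set the list apart. Without the filter on low counts 2 of the 18 passed, against 5.75% of all genes. The klf17 level, for example, was 22.3, 4.35 and 9.27 normalized CPM in mock injected and 26.0, 2.45 and 7.24 in StCsm(EGFP) injected batches. Its order of batches was the same in both treatments, as was that of krt4.

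The share of the muscle and blood genes, multiplied by the 24 hpf level of a keratin, can be set beside what was measured. For krt4 this product was 44.8, 6.04 and 28.7 normalized CPM in mock injected batches, and the measured level lay below it in all 6 libraries. For krt8 it was 1.84, 0.25 and 1.18, well under the measured 8.49, 5.85 and 4.55. With the product taken off each library (an alternative chosen after the values were seen, with values under 0 set to 0), the mean log2 ratio of krt4 was 0 because nothing was left in any library. That of krt8 was -0.35, and those of krt5, krt17, krt18a.1 and krt92 lay between -0.20 and -0.28. What was left of krt5 was 0.18, 0.36 and 1.06 normalized CPM in mock injected and 0.28, 0.46 and 0.22 in StCsm(EGFP) injected batches. It was thus lower after StCsm(EGFP) injection in batch 3 only. What was left of krt8 and krt18a.1 was higher after StCsm(EGFP) injection in batch 3. No value of krt5 or krt8 was put at 0, whereas the small ratios of krt17, krt18a.1 and krt92 are partly set by the values put at 0. For krt17 these were all 3 StCsm(EGFP) injected libraries and mock injected batch 1. For krt92 they were 2 StCsm(EGFP) injected libraries, and for krt18a.1 it was 1. In batch 2 alone, in which the mock injected library was low in muscle and blood genes, the log2 ratios were -1.43 for krt4, -0.08 for krt5, -0.41 for krt8, -0.23 for krt17, -0.58 for krt18a.1 and -0.42 for krt92. The part of these transcripts in the keratin difference was not tested.

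**Figure D5:**
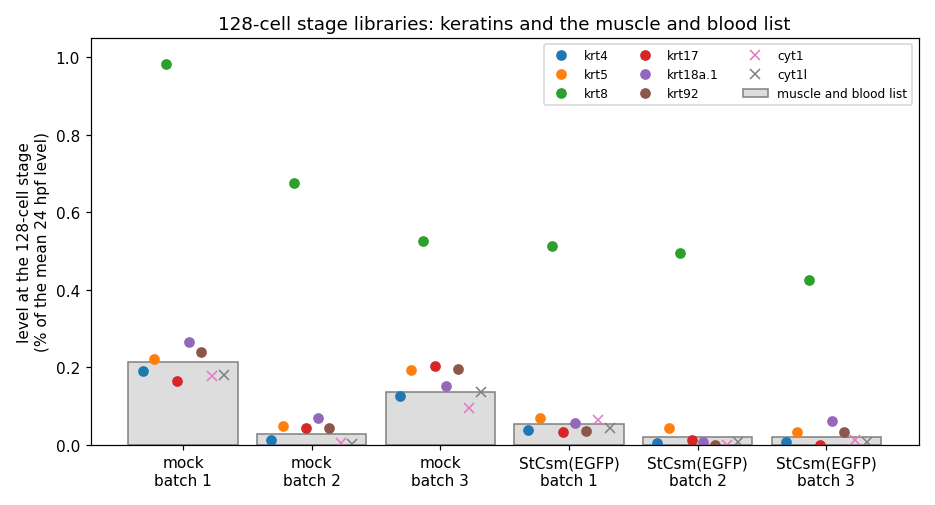
Level in each library of the 128-cell stage as a percentage of the mean 24 hpf level (vertical axis), for the summed muscle and blood genes (grey bars), the 6 keratins (points) and cyt1 and cyt1l (crosses). In mock injected batches 1 and 3 most points lie near the bar, at 0.212% and 0.136%, and krt8 lies above the bars in all 6 libraries.

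At 5 hpf the muscle and blood sum was highest in StCsm(EGFP) injected batch 2, at 0.177% of its 24 hpf level, against 0.0348% to 0.0672% in the other libraries. Multiplied by the 24 hpf level of krt4 this is 37.4 of the 4418 normalized CPM measured there.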

How the data were processed

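RNA was sequenced from pools of 25 embryos in 18 libraries. Per the labels, the authors used poly(A) selection, the CORALL Total RNA-Seq kit, UMI-tools 1.0.0, cutadapt 2.4, STAR 2.7.2b, HTSeq 0.11.2 and the GRCz11 build, and they deposited unscaled read counts by gene and library. Their tables of counts divided by size factors were not used. Symbols came from a table of gene names (29201 of 32521 identifiers had one). The members and gene lists were chosen with earlier results of these data known.

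Counts were fitted per comparison with edgeR 4.0.16 in R 4.3.3 (quasi-likelihood, robust, TMM, filterByExpr), with the batch as a block, as in the study. Calls were made at 0.1 after Benjamini-Hochberg adjustment. DESeq2 1.42.0 gave alternatives. The study added batch to its models because EGFP expression differed between groups. Same-numbered libraries were also taken to share their embryo pool, which the sample titles do not state. Deviations from the group means correlated, within a batch number, with r of 0.50 to 0.70 at the 128-cell stage, 0.032 to 0.62 at 5 hpf and 0.23 to 0.49 at 24 hpf. Between unlike batch numbers r was -0.55 to -0.13, -0.66 to 0.56 and -0.38 to 0.20 at these stages in order. At 5 hpf the ranges thus overlapped, and r did not bear out the pairing there. Deviations from a group mean cancel within the group, so a positive r within batch numbers pulls r between unlike numbers down. The gap between the ranges at the other stages is therefore partly arithmetic. Ratios used 0.5 added CPM. Named genes were the 6 members, the 4 most abundant genes of each other list with klf17, grhl3, grhl1 and tp63, the 2 most alike genes of each member, and EGFP. 1 further gene that this rule names is not reported here. The fits were tested on simulated data.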

Additional observations from a re-analysis of the deposited data

How the results depend on the processing

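No keratin passed the test at 24 hpf under any alternative run. Signs of estimates near 0 turned. With library totals krt5 and krt92 had log2 fold changes of 0.019 and 0.083 at 24 hpf, with at least 10 counts in every library krt92 had 0.0030, and with a replicate left out the values ranged from -0.15 to 0.021 for krt5, -0.059 to 0.19 for krt8, -0.15 to 0.12 for krt17 and -0.22 to 0.20 for krt92. Without the replicate block krt92 had 0.024 and 0 genes were called at the 128-cell stage, against 783 with it, among them 0 of the muscle and blood genes and 0 of the other keratins, and from 5 hpf to 24 hpf 9 other keratins rose in place of 10. The pairing changed no other count of the gene lists. Without a filter on low counts, 72 genes were called for the injection at 24 hpf, 6 at 5 hpf and 1513 at the 128-cell stage. DESeq2's likelihood ratio test called 2 at 5 hpf, a threshold of 0.05 left 199 at the 128-cell stage, and at least 10 counts in every library left 9280 of 14517 from 5 hpf to 24 hpf. Leaving out 1 replicate gave 0 to 46 genes at 24 hpf (46 without replicate 3), 0 to 22 at 5 hpf (22 without replicate 2, 7 without replicate 3) and 102 to 875 at the 128-cell stage (102 without replicate 2, 234 without replicate 1). With library totals, 68.9% of the genes called from the 128-cell stage to 5 hpf were lower, against 50.2% with TMM scaling. The median keratin log2 ratio at the 128-cell stage was -0.83, and -1.62 with 0.1 CPM added and -0.25 with the muscle and blood product taken off (chosen after the data were seen), where values put at 0, among them krt4 in all 6 libraries, partly set the median. From the 128-cell stage to 5 hpf it was 9.03 in mock injected and 10.28 in StCsm(EGFP) injected embryos. At the 128-cell stage the depth limits krt17, krt18a.1 and krt92, which had at most 23 reads per library.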
